A study of Mus musculus with 18 samples.

Results

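The genes described are 8 non-classical MHC class I and MHC I-related genes of the mouse, *H2-T23*, *H2-T22*, *H2-M3*, *H2-Q2*, *H2-Q4*, *H2-Q7*, *Cd1d1* and *Mr1*. They were found by Entrez Gene ID among the 27179 genes of the deposited counts, and all 8 passed the filter on low counts that left 12798 genes for testing. From each of 9 mice, 3 per genotype, RNA was sequenced from CD69+ thymocytes low or high in surface MHC I, called the low and the high fraction here, which gave 18 samples in 6 groups. The question was how loss of a component of LUBAC, the complex that builds linear ubiquitin chains, alters gene expression after positive selection.

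WT mice were C57BL/6. *Hoil*ΔCd4 mice carried a *Cd4* Cre transgene and loxP-flanked *Rbck1*, the gene of HOIL-1, in which the promoter and the first exons are removed by Cre, so that deletion took place in T-lineage cells from the double-positive (DP) stage. *Sharpin* cpdm mice lacked SHARPIN in every cell, and this allele came from C57BL/Ka mice and was crossed to C57BL/6 for only 2 generations, so that by the paper's account much of the genome was still that of C57BL/Ka. Strain and genotype therefore cannot be told apart in any comparison of *Sharpin* cpdm mice. The age of the sequenced animals was not given in the labels. MHC I was stained as H2-Kb, the product of *H2-K1*, which is not among the 8 genes. Dead cells were gated out, as were cells with the γδ T-cell receptor, with CD44 or CD25, or with markers of NK (NK1.1), B (B220), myeloid (Mac-1, Gr1) or MHC II-bearing cells.

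Classical MHC I molecules show peptides to CD8+ T cells. The non-classical and related molecules have a similar fold, vary little between individuals, and mostly show a narrow set of ligands to innate-like lymphocytes or to receptors of natural killer (NK) cells. H2-T23 (Qa-1) presents leader peptides of other MHC I chains to CD94/NKG2 receptors. H2-M3 presents formylated peptides, and H2-T22 is bound by certain γδ T-cell receptors. H2-Q7 is one of the chains of Qa-2, which is known to appear on thymocytes late in maturation. CD1d, encoded by *Cd1d1*, presents lipids to NKT cells, and in the thymus these are selected on CD1d of DP thymocytes. MR1 presents vitamin B metabolites to MAIT cells. H2-Q2 and H2-Q4 are products of the Q region of the H2 complex.

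The 6 H2 genes lie on chromosome 17 of GRCm38 (mm10), in the order *H2-Q2* (Entrez Gene 15013; 35342307–35346764), *H2-Q4* (15015; 35379617–35384674), *H2-Q7* (15018; 35439140–35443773), *H2-T23* (15040; 36029977–36032701), *H2-T22* (15039; 36037128–36042742) and *H2-M3* (14991; 37270234–37274485). *Cd1d1* (12479) lies on chromosome 3 at 86995834–87012358, and *Mr1* (15064) on chromosome 1 at 155127874–155146814.

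Because the Q and T genes are related by duplication, the reads of one may be counted for another. Every stretch of 75 bases, the read length, of the GENCODE transcripts of each gene was searched for identical stretches in transcripts of other genes. None of the stretches of *H2-M3* and *Mr1* was shared. The shared part was 5.91% for *H2-T23*, 8.07% for *H2-Q2* (with *H2-Q1*) and 14.2% for *Cd1d1* (with *Cd1d2*). *H2-Q7* shared 17% of its stretches, among them 8.88% with *H2-Q10*, 5.32% with *H2-Q5* and 4.21% with *H2-Q6*. *H2-Q4* shared 20.7%, with 13.4% of all found in *Gm11131*, 3.43% in *H2-Q6* and others in genes outside the H2 complex. *H2-T22* shared 40% of its stretches, with 25.2% of all found in *A930015D03Rik* and 15.7% of all in *H2-T10*. The counts of *H2-T22*, *H2-Q4* and *H2-Q7* are therefore the least certain as to gene.

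The sequences before the transcription start are shown for 5 of the genes, because neighbours in the Q region moved in opposite directions between the fractions. Each line holds the 250 bases before the start of the RefSeq entry, on the strand of the gene, from GRCm38.p6. For *H2-Q7* this start lies past 35439154, inside the gene coordinates given above, which begin at 35439140. Distances for *H2-Q7* count from the later start. The stretches were chr17:35342057-35342306 (plus strand) for *H2-Q2*, chr17:35379367-35379616 (plus strand) for *H2-Q4*, chr17:35438905-35439154 (plus strand) for *H2-Q7*, chr17:36032702-36032951 (minus strand) for *H2-T23* and chr17:36042743-36042992 (minus strand) for *H2-T22*. Capitals mark matches, on either strand, to 4 letter patterns known from MHC I promoters, in which N is any base: GGGNNTTCC (the form of many NF-κB sites), GAAA repeated with a gap of 2 bases (interferon-stimulated response elements, ISRE), ATTGG (the inverted CCAAT box) and TGACG (the core of ATF/CREB sites).
H2-Q2: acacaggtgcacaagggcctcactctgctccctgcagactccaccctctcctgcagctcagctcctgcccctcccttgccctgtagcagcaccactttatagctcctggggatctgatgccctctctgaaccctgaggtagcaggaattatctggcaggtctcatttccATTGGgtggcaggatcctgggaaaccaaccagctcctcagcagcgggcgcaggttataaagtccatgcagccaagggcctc
H2-Q4: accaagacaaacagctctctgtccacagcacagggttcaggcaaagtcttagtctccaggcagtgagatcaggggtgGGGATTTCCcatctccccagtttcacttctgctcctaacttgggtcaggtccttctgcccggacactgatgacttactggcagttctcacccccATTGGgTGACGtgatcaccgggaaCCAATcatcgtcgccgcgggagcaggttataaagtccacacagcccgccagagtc
H2-Q7: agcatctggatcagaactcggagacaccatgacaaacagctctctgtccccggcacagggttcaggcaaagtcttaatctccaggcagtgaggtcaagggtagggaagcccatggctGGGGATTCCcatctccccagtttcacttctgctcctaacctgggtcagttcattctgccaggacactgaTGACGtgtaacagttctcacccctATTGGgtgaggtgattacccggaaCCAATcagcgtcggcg
H2-T23: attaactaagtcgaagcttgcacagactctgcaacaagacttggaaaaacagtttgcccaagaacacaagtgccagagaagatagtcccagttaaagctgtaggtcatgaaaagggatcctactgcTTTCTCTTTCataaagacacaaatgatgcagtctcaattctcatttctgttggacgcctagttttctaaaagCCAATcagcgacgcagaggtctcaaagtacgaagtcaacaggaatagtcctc
H2-T22: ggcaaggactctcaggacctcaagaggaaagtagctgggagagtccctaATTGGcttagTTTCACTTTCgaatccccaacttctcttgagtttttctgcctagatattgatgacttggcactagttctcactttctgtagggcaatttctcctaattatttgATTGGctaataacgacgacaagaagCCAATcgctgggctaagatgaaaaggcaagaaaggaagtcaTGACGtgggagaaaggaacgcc

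The patterns were searched in the RefSeq windows from 250 bases before to 50 after the start, and 7 of the 8 genes had such a window (*Cd1d1* is named only). GGGNNTTCC occurred in 5.82% of all 32851 windows, the ISRE pattern in 3.44%, ATTGG in 37.4% and TGACG in 20.8%. Of the 7 genes, *H2-Q4* and *H2-Q7* held GGGNNTTCC, 173 and 133 bases before the start, together with ATTGG and TGACG, and so did both classical genes, *H2-K1* and *H2-D1*. The *H2-Q2* window held a single ATTGG and no other match. *H2-T23* and *H2-T22* held the ISRE pattern on the opposite strand, *H2-M3* held ATTGG and TGACG, and *Mr1* held none of the 4 patterns. Matches describe letters, not occupied sites, and only exact matches were counted. The letters tttcacttct depart from the ISRE pattern at their end and so were not marked. They stand in the windows of *H2-Q4*, *H2-Q7*, *H2-M3*, *H2-K1* and *H2-D1*, so an unmarked window need not lack a site of that kind.

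Reads counted on genes numbered 10577966 to 16266128 in a sample. The level of *Rbck1* was 222.5 ± 6.08 (SD, n = 3) and 266.1 ± 2.28 CPM (counts relative to the total of a sample, scaled by TMM) in the low and high fractions of WT mice, and 0.5436 ± 0.256 and 5.724 ± 2.81 CPM in *Hoil*ΔCd4 cells, as their label says. *Sharpin* itself was still transcribed in *Sharpin* cpdm cells, at 71.49 ± 4.49 and 73.81 ± 4.25 CPM in the low and high fractions, below the 91.31 ± 5.76 and 89.7 ± 2.87 CPM of WT. *Xist* and *Ddx3y* placed 3 of 3 WT mice, 1 of 3 *Hoil*ΔCd4 mice and 1 of 3 *Sharpin* cpdm mice on the female side, so sex and genotype were partly confounded. The high-fraction library of *Hoil*ΔCd4 mouse 2, a male by *Ddx3y*, held *Xist* at 63.61 CPM (not scaled by TMM), against 0.5929 to 7.432 CPM in the other libraries of male mice, and the highest *Rbck1* level of its genotype (8.941 CPM). For the comparisons of *Hoil*ΔCd4 mice with other genotypes, the calls without this mouse are given beside those with it. Between their own fractions this was done for *Mr1*, *Cd1d1* and the count of called genes. All 7 T-lineage markers were present in every group. Of 7 B cell markers 2 or 3 exceeded 0.5 CPM in a group, with *Pax5* at 0 in 5 of the 6 groups and sums of 3.713 to 6.758 CPM. Of 9 myeloid and dendritic cell markers 3 to 5 did, with sums of 29.17 to 38.98 CPM. Of 7 markers of thymic epithelium 1 or 2 did, with sums of 6.542 to 12.65 CPM, mostly from *Epcam* (group means of 6.921 to 10.85 CPM), and *Foxn1* was at 0 in 5 of the 6 groups. Where a level is lower in these sorted bulk samples, fewer expressing cells and less RNA per cell cannot be told apart.

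The high fraction was compared with the low fraction within each genotype, which bears on how the genes change as positively selected thymocytes mature. The fractions were sorted on surface MHC I itself. Maturation and selection of cells by MHC I level therefore cannot be told apart in these comparisons, for the 8 genes or for related MHC I genes. In WT mice, 5 of the 8 genes rose (*H2-Q7*, *H2-Q4*, *H2-T22*, *H2-M3* and *H2-T23*), *H2-Q2* and *Mr1* fell, and *Cd1d1* was not called. A gene was called at an adjusted p under 0.05 (limma, Benjamini-Hochberg over the 12798 genes). In this comparison 54.4% of all genes tested were called, 27.5% as higher and 26.8% as lower, so a call by itself is common. The median log2 fold change was 0.84 over the 8 genes and −0.0042 over all genes tested. The plot of levels by sample shows the 8 genes in all 6 groups.

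**Figure D1:**
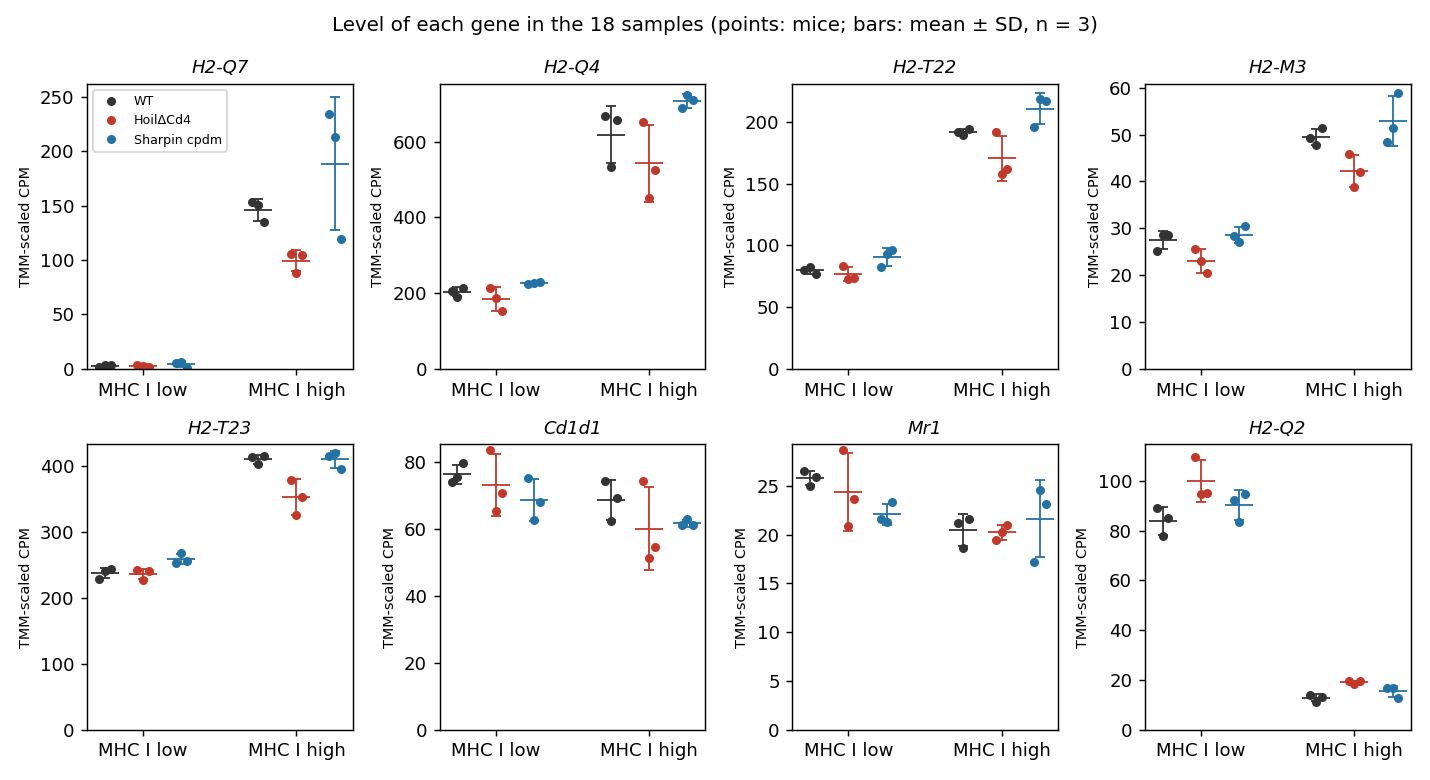
Level of each of the 8 genes in TMM-scaled CPM (vertical axes, from 0) in the MHC I low and MHC I high fractions. Points are mice, horizontal marks and bars are the mean and SD of the 3 mice, and colours are genotypes. *H2-Q7* lay between 1.255 and 5.94 CPM in the low samples and between 88.27 and 233.6 CPM in the high samples, and *H2-Q2* moved the opposite way in every mouse.

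*H2-Q7* (Qa-2) had the widest change of the 8. In the WT low fraction its levels were 2.177, 3.454 and 3.363 CPM in mice 1, 2 and 3, from 34, 54 and 43 counts, and in the high fraction 153.2, 150.2 and 134.7 CPM. No low sample came near a high sample. The ratio within a mouse ranged from 26.3 to 95 over the 9 mice, the spread coming with low samples of 15 to 86 counts. The log2 fold change was 5.59 (SE 0.372, adjusted p = 2.84e-08, limma) in WT, 5.22 (SE 0.457, adjusted p = 7.01e-07) in *Hoil*ΔCd4 and 5.49 (SE 0.39, adjusted p = 5.52e-08) in *Sharpin* cpdm mice. In each genotype this was rank 5 among the increases of all genes tested.

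*H2-Q2*, in the same gene cluster as *H2-Q7*, fell. Its WT levels were 88.99, 77.71 and 85.09 CPM in the low and 13.98, 11.17 and 13.31 CPM in the high fraction. It was lower in the high fraction of all 9 mice, by 4.9 to 7.37 times. The log2 fold change was −2.68 (SE 0.077, adjusted p = 5.12e-23, limma) in WT, rank 29 among the decreases of all genes tested. It was −2.39 in *Hoil*ΔCd4 and −2.51 in *Sharpin* cpdm mice (adjusted p = 3.58e-19 and 9.13e-22).

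*H2-Q4* had WT levels of 205.2, 190.2 and 214 CPM in the low fraction and 667.2, 531.7 and 656.4 CPM in the high fraction. The fractions did not overlap in any genotype, and the ratio within a mouse was 2.41 to 3.45. Its log2 fold change was 1.64 (SE 0.0894, adjusted p = 1.63e-10, limma) in WT, and the mutants had 1.53 (*Hoil*ΔCd4) and 1.65 (*Sharpin* cpdm).

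*H2-T22*, the γδ receptor ligand, stood at 79.77, 82.57 and 76.88 CPM in the WT low fraction and 191.6, 189.3 and 194 CPM in the high fraction. It was higher in the high fraction of all 9 mice, with log2 fold changes of 1.28 (SE 0.052, adjusted p = 2.62e-19, limma), 1.13 and 1.23 in WT, *Hoil*ΔCd4 and *Sharpin* cpdm mice. *H2-T23* (Qa-1) was at 229.3, 240.4 and 243.7 CPM in the WT low fraction and at 414.2, 403.2 and 415.3 CPM in the high fraction. It rose by 0.80 (SE 0.0426, adjusted p = 2.46e-16, limma) on the log2 scale in WT, by 0.56 in *Hoil*ΔCd4 and by 0.66 in *Sharpin* cpdm mice, the smallest increases of the 5 genes that rose. *H2-M3*, which presents formylated peptides, was at 25.22, 28.65 and 28.47 CPM and then at 49.3, 47.81 and 51.31 CPM in WT. Its log2 fold changes of 0.88 (SE 0.0701, adjusted p = 3.66e-12, limma), 0.87 and 0.89 were nearly the same in the 3 genotypes.

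The 2 genes outside the H2 complex changed little. *Mr1* was at 26.51, 25.01 and 25.89 CPM in the WT low fraction and at 21.18, 18.63 and 21.58 CPM in the high fraction, and the groups did not overlap. It fell by 0.30 on the log2 scale in WT (SE 0.092, adjusted p = 0.00612, limma). The change was −0.26 in *Hoil*ΔCd4 mice (adjusted p = 0.0614), and −0.36 without mouse 2 (adjusted p = 0.0344). It was called in 5 of 19 alternatives. In *Sharpin* cpdm mice the change was 0.01 (95% interval −0.19 to 0.21), and mouse 1 was at 17.22 and mice 2 and 3 at 24.6 and 23.12 CPM in the high fraction. The difference between the *Sharpin* cpdm and WT changes of *Mr1* was 0.32 (SE 0.133, adjusted p = 0.201, limma) and was not called.

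*Cd1d1*, which presents lipids to NKT cells, was at 73.95, 75.41 and 79.54 CPM in the low fraction of WT mice and 74.2, 62.36 and 69.1 CPM in the high fraction, and the ranges overlapped. Its log2 fold change was −0.14 (95% interval −0.30 to 0.01, adjusted p = 0.114, limma) in WT and −0.13 (adjusted p = 0.168) in *Sharpin* cpdm mice. In *Hoil*ΔCd4 mice it was −0.34 (SE 0.0918, adjusted p = 0.00378), although the groups overlapped, and without *Hoil*ΔCd4 mouse 3 the adjusted p was 0.108. Without mouse 2 the value was −0.27 (adjusted p = 0.0367). In *Hoil*ΔCd4 mice 7 of the 8 genes were called (45.3% of all genes), and 8 without mouse 2 (4808 of all 12798 genes). In *Sharpin* cpdm mice 6 of the 8 were called (54.6%). Groups that did not overlap were found for 7, 6 and 6 of the 8 genes in WT, *Hoil*ΔCd4 and *Sharpin* cpdm mice, against 52.7%, 48.9% and 55.8% of all genes.

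**Figure D2:**
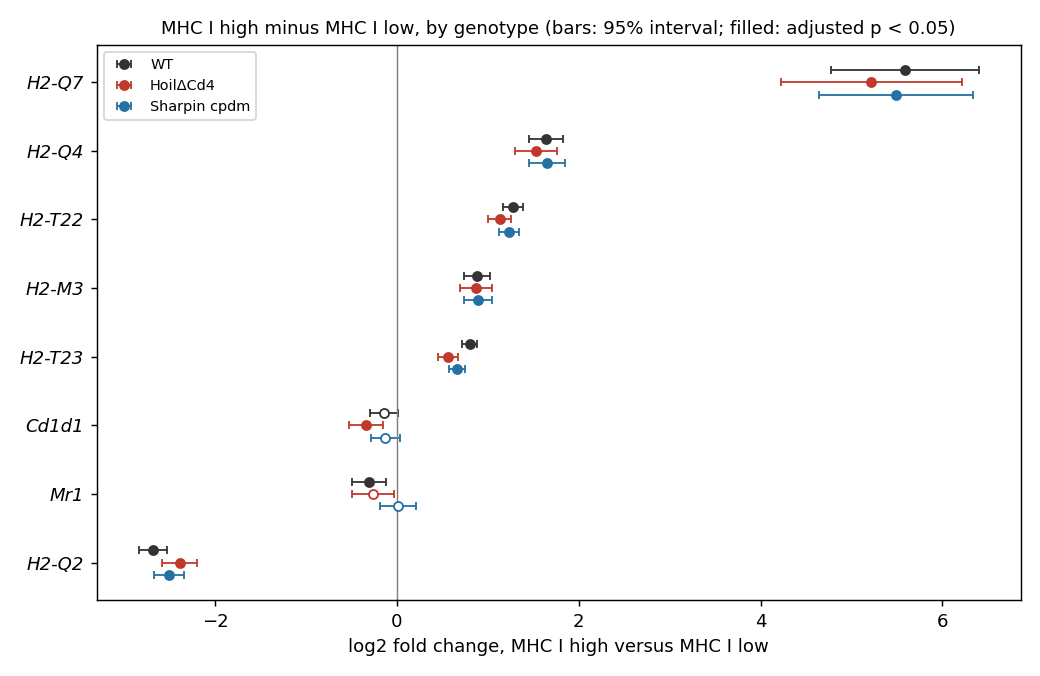
Log2 fold change of the MHC I high against the MHC I low fraction (horizontal axis) for each gene and genotype, with 95% intervals, filled where the adjusted p was under 0.05. The 5 genes at the top lie to the right of 0 in all genotypes, *H2-Q2* lies between −2.68 and −2.39, and *Cd1d1* and *Mr1* lie near 0.

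No change between fractions differed between a mutant and WT past the threshold. For *Hoil*ΔCd4 against WT, 0 of 8 were called by limma (0.398% of all genes), 0 by edgeR and 0 by DESeq2, and 2 had an unadjusted p under 0.05. These were *H2-T23* (difference −0.24, SE 0.0675, adjusted p = 0.129, or −0.20 with 0.485 without *Hoil*ΔCd4 mouse 2) and *H2-Q2* (0.29, SE 0.122, adjusted p = 0.38, or 0.29 with 0.687 without that mouse). For *Sharpin* cpdm against WT, 0 of 8 were called by each of the 3 tools (3.13% of all genes by limma), and 2 had an unadjusted p under 0.05, *H2-T23* and *Mr1*.

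Compared per kb of exon, the order of the genes shifted between the fractions. In the WT low fraction the order was *H2-T23* (180.6 ± 5.71 CPM per kb, SD, n = 3), *H2-Q4* (113.3 ± 6.7), *H2-Q2* (76.37 ± 5.21), *H2-T22* (45.36 ± 1.62), *Cd1d1* (41.35 ± 1.57), *H2-M3* (19.26 ± 1.35), *Mr1* (10.28 ± 0.3) and *H2-Q7* (1.952 ± 0.464), and no neighbours overlapped. In the WT high fraction *H2-Q4* (344.9 ± 42 CPM per kb) and *H2-T23* (312 ± 5.09) led with overlapping ranges. *H2-T22* (109 ± 1.32) and *H2-Q7* (95.08 ± 6.48) followed. *Cd1d1* (37.16 ± 3.22) and *H2-M3* (34.72 ± 1.23) overlapped, and *H2-Q2* (11.67 ± 1.34) and *Mr1* (8.157 ± 0.637) came last. *H2-Q7* thus moved from rank 8 to rank 4 and *H2-Q2* from rank 3 to rank 7. Together the 8 genes took 0.0712% to 0.0752% of the counts in WT low samples and 0.139% to 0.153% in WT high samples.

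**Figure D3:**
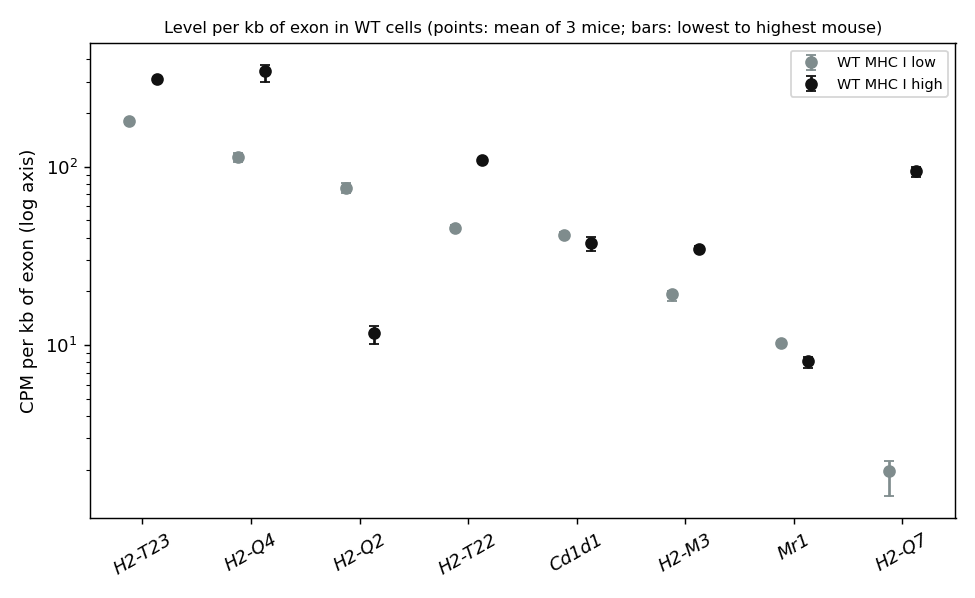
Level of the 8 genes per kb of exon in WT cells (vertical log axis, CPM per kb), ordered by MHC I low level. Points are means of 3 mice and bars run from the lowest to the highest mouse. *H2-Q7* is the lowest of the 8 in the low fraction and lies at 95.08 CPM per kb in the high fraction.

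The related genes gave the setting. *H2-K1*, whose product the sort used, went from 215.6 to 2003 CPM in WT, a log2 fold change of 3.21 (SE 0.0503), and *H2-D1* from 298.8 to 1071 CPM (1.82, SE 0.0395). Of the other 25 non-classical and MHC I-like genes, 21 were in the files and 11 were tested. Of these, 7 met the filter on low counts in both fractions, and in WT 3 of them rose and 4 were not called. *H2-T10*, a near relative of *H2-T22*, rose by 1.21 (SE 0.0612) and *H2-T24* by 0.98 (SE 0.0598) on the log2 scale. The other 4 met the filter in 1 fraction alone, which fixes their direction in part, so their levels are given with no test. *H2-Q6*, which shares sequence with *H2-Q7*, was at 0.2228 ± 0.0575 CPM in the WT low fraction (4, 4 and 2 counts) and 16.13 ± 0.754 CPM in the high fraction. *Fcgrt*, the neonatal Fc receptor, had 7, 7 and 4 counts in the WT low and 23, 31 and 23 counts in the WT high samples. *H2-T3* had 5, 6 and 4 and then 13, 16 and 10 counts, and *H2-M10.2* had 5, 8 and 5 and then 2, 2 and 2 counts.

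Of 14 genes of the light chain and the peptide-loading machinery, 12 rose and 2 were not called in WT. They included *B2m*, the light chain of all these molecules (1.77, SE 0.0465), *Psmb9*, an immunoproteasome subunit (1.39, SE 0.0558), and *Tap1*, a subunit of the peptide transporter (1.17, SE 0.049). Of 8 regulators of MHC I genes, 5 rose and 1 fell, with *Nlrc5*, the MHC I transactivator, at 1.61 (SE 0.0561). Of 14 genes for lipid loading of CD1d and NKT selection, 7 rose and 3 fell. *Ctss*, a lysosomal protease, rose by 2.74 (SE 0.0844), and *Sh2d1a*, the adaptor SAP of SLAM receptors, changed by −1.28 (SE 0.0545). The median log2 fold changes of these lists were 0.56, 0.76 and 0.20, against −0.0042 for all genes.

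Most markers of maturity moved with these levels. The summed level of 6 markers of mature single-positive (SP) thymocytes was 713.3 to 737.7 CPM in the low fraction of WT mice and 1516 to 1610 CPM in WT high samples. Of the 6 markers, 5 rose and 1 fell. *S1pr1*, the exit receptor, was at 0.8627 ± 0.0316 and 80.04 ± 2.38 CPM in the low and the high fraction. The 8 DP markers, which include *Cd4* and *Cd8a* of SP cells, summed to 1412 to 1432 CPM in the low and 1633 to 1789 CPM in the high samples of WT mice, and 2 of them rose and 5 fell. *Rag1*, of the recombinase and 1 of the 5, was at 163.3 and 84.72 CPM. The sum of 7 NK and NKT cell markers was 2.346 to 3.837 CPM in the low and 8.62 to 11.04 CPM in the high samples of WT mice, with 2 and 4 of the 7 above 0.5 CPM and *Ncr1* at 0 in both. The part of these differences in the levels of the 8 genes was not tested.

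*Hoil*ΔCd4 cells were then compared with WT cells within each fraction, which asks whether loss of HOIL-1 alters the genes. In the low fraction none of the 8 genes was called (0 of 8 by limma, edgeR and DESeq2, against 0.985% of all genes by limma), and 2 had an unadjusted p under 0.05, *H2-M3* (log2 fold change −0.26, adjusted p = 0.245) and *H2-Q2* (0.24, adjusted p = 0.37). Without *Hoil*ΔCd4 mouse 2 these were −0.25 and 0.27 (adjusted p = 0.448 and 0.5). In the high fraction, where 6.65% of all genes were called (3.84% higher and 2.81% lower), *H2-Q2* was higher and *H2-T23* and *H2-T22* were lower, 3 of 8 by limma and 2 of 8 by edgeR and by DESeq2. Without *Hoil*ΔCd4 mouse 2 the call of *H2-Q2* alone was left. Calls over all genes then fell from 851 to 171 (100 higher and 71 lower). With all mice, the median log2 fold change of the 8 genes in the high fraction was −0.25, against −0.00027 for all genes. Without *Hoil*ΔCd4 mouse 2 the median of the 8 genes was −0.13. The plot of mutant against WT differences gives all 8 genes in both fractions.

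*H2-Q2* in the high fraction was at 13.98, 11.17 and 13.31 CPM in WT and at 19.43, 18.26 and 19.39 CPM in *Hoil*ΔCd4 mice. The groups did not overlap, as in 19.6% of all genes. The log2 fold change was 0.53 (SE 0.0921, adjusted p = 4.06e-04, limma). The call held in all 19 alternatives that were tried (adjusted p from 1.19e-04 to 0.013), among them the model with *Xist* as a covariate (0.54, adjusted p = 9.33e-04), and without *Hoil*ΔCd4 mouse 2 the log2 fold change was 0.56 (adjusted p = 0.00639). At 0.24 in the low fraction, the difference was not called. The levels of 109.7, 94.81 and 94.98 CPM in *Hoil*ΔCd4 mice lay above all WT low samples there (14.7% of all genes did not overlap). The change between fractions did not differ from WT past the threshold.

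In the high fraction *H2-T23* stood at 414.2, 403.2 and 415.3 CPM in WT and at 379.9, 326.3 and 353.9 CPM in *Hoil*ΔCd4 mice, without overlap. The log2 fold change was −0.24 (SE 0.051, adjusted p = 0.00359, limma). The call was lost without *Hoil*ΔCd4 mouse 2, at −0.18 (adjusted p = 0.137), and without WT mouse 3, at −0.23 (adjusted p = 0.128). In these 2 fits calls over all genes fell from 851 to 171 and to 134. With *Xist* as a covariate the log2 fold change of *H2-T23* was −0.22 (adjusted p = 0.0139). In the low fraction *H2-T23* averaged 237.8 ± 7.52 CPM (WT) and 236.8 ± 8.05 CPM (*Hoil*ΔCd4), ranges that overlapped (log2 fold change −0.0017, 95% interval −0.12 to 0.11).

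*H2-T22* in the high fraction was at 191.6, 189.3 and 194 CPM in WT and at 191.5, 157.9 and 162.2 CPM in *Hoil*ΔCd4 mice, where mouse 1 lay within the WT range. The log2 fold change of −0.20 (SE 0.0623, adjusted p = 0.0451, limma) was called, but it was lost in 14 of 19 alternatives, including edgeR and DESeq2 and the fit without *Hoil*ΔCd4 mouse 2 (−0.14, adjusted p = 0.431). *H2-M3* differed by −0.27 (SE 0.0839, adjusted p = 0.0509, limma) and was not called. It was called in 5 of the 19 alternatives, among them the model with *Xist* as a covariate (−0.31, adjusted p = 0.0241), and without *Hoil*ΔCd4 mouse 2 it was −0.20 (adjusted p = 0.386). WT mice had 49.3, 47.81 and 51.31 CPM, and the *Hoil*ΔCd4 mice, all lower, had 45.85, 38.87 and 41.95 CPM.

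For *H2-Q7*, all 3 *Hoil*ΔCd4 high samples (105.2, 88.27 and 105 CPM) lay below the 3 WT samples (134.7 to 153.2 CPM). Its log2 fold change was −0.51 with a 95% interval of −1.48 to 0.46 (SE 0.446, adjusted p = 0.547, limma), and it was called in none of the 19 alternatives. *H2-Q4* (−0.28, adjusted p = 0.133) and *Cd1d1* (−0.26, adjusted p = 0.0816) were each called in 1 of the 19 alternatives, the fit without *Hoil*ΔCd4 mouse 1, whose levels were the highest of its group for both (650.8 and 74.25 CPM). Without *Hoil*ΔCd4 mouse 2 the values of *H2-Q7*, *H2-Q4* and *Cd1d1* were −0.42, −0.13 and −0.12 (adjusted p = 0.819, 0.63 and 0.638). *Mr1* differed by −0.04 (95% interval −0.27 to 0.18, adjusted p = 0.864), or by −0.06 without that mouse.

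**Figure D4:**
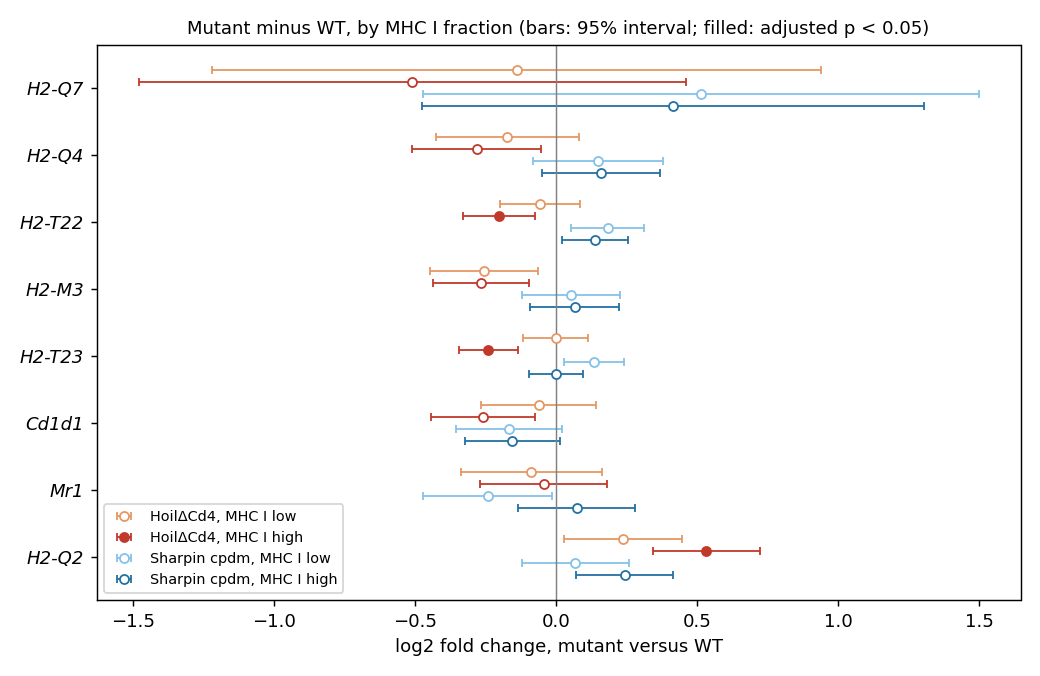
Log2 fold change of each mutant against WT (horizontal axis) for each gene and fraction, with 95% intervals, filled where the adjusted p was under 0.05. The filled points are *H2-T23*, *H2-T22* and *H2-Q2* in the *Hoil*ΔCd4 high fraction, at −0.24, −0.20 and 0.53, and the intervals of *H2-Q7* are the widest.

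Some other genes of the pathway were also lower in the *Hoil*ΔCd4 high fraction. All but 1 of these calls were lost without *Hoil*ΔCd4 mouse 2, when calls over all genes fell from 851 to 171. With all mice, of the 14 light-chain and loading genes 3 were lower, namely *Psme1* (−0.22, SE 0.0543), *Tap1* (−0.20, SE 0.0587) and *Tapbp*, tapasin (−0.23, SE 0.0581), and 11 were not called. Of the 8 regulators 3 were lower, among them *Irf1* (−0.35, SE 0.0643, adjusted p = 8.49e-04, limma) and *Irf9* (−0.25, SE 0.0565), while *Nlrc5* was at −0.13 (SE 0.0671, adjusted p = 0.264). *H2-K1* (−0.16, SE 0.0603, adjusted p = 0.115), *H2-D1* (−0.06, SE 0.0473, adjusted p = 0.45) and *B2m* (−0.07, SE 0.0557, adjusted p = 0.497) were not called. Of the 11 other non-classical genes tested, *H2-T24* was lower (−0.24, SE 0.0715, adjusted p = 0.0421), and of the 14 CD1d and NKT genes *Ctss* was lower (−0.41, SE 0.101, adjusted p = 0.0122). Without *Hoil*ΔCd4 mouse 2 *Irf1* was still called (−0.30, adjusted p = 0.0393), whereas *Psme1*, *Tap1*, *Tapbp*, *Irf9*, *H2-T24* and *Ctss* were at −0.20, −0.13, −0.17, −0.19, −0.17 and −0.35 (adjusted p = 0.117, 0.438, 0.234, 0.162, 0.371 and 0.115). In the low fraction 1 gene each of the loading, regulator and CD1d lists was lower (0, 1 and 1 without that mouse), and the median log2 fold changes of these lists were −0.06, −0.13 and −0.03.

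Marker sums of the *Hoil*ΔCd4 high samples also lay apart from those of WT. The 6 SP markers summed to 1332 to 1359 CPM against 1516 to 1610 CPM in WT, and 1 of the 6 was called lower. The 8 DP markers summed to 1857 to 2137 against 1633 to 1789 CPM, and 6 of the 8 were called higher (2 without *Hoil*ΔCd4 mouse 2, when no SP marker was called). *S1pr1* was at 59.75 ± 7.96 against 80.04 ± 2.38 CPM and *Rag1* at 149.3 against 84.72 CPM. The 7 NK and NKT markers summed to 3.36 to 5.607 CPM, 3 of them above 0.5 CPM and *Ncr1* at 0, against 8.62 to 11.04 CPM in WT, and the 4 γδ T-cell markers to 42.44 to 57.03 against 28.42 to 35.73 CPM, with none at 0. Their part in the differences of *H2-Q2*, *H2-T23* and *H2-T22* was not tested.

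*Sharpin* cpdm cells were compared with the same WT samples, so the comparisons of the mutants with WT share their controls. None of the 8 genes was called in the low fraction (0 of 8 by limma, edgeR and DESeq2, against 12.2% of all genes by limma) or in the high fraction (0 of 8 by each tool, against 8.62%). At an unadjusted p under 0.05 there were 3 in the low fraction and 2 in the high fraction. In the low fraction these were *H2-T22* (log2 fold change 0.18, adjusted p = 0.0535), *H2-T23* (0.14, adjusted p = 0.0824) and *Mr1* (−0.24, adjusted p = 0.159), and in the high fraction *H2-T22* (0.14, adjusted p = 0.137) and *H2-Q2* (0.24, adjusted p = 0.0691).

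*H2-Q2* was at 16.58, 16.65 and 12.85 CPM in the *Sharpin* cpdm high fraction, and mouse 3 lay within the WT range. *H2-Q4* was at 688.4, 722.9 and 709 CPM, above all 3 WT samples (22.3% of all genes did not overlap), with a log2 fold change of 0.16 (SE 0.0982, adjusted p = 0.369, limma). *H2-Q7* had its widest spread here. It was at 233.6, 212.9 and 119.2 CPM in the high fraction and at 5.812, 5.94 and 1.255 CPM in the low fraction, so that mouse 3 was the lowest of its group in both fractions and below all WT samples. *H2-Q6* gave the same order in the high fraction (26.37, 19 and 8.992 CPM). The log2 fold change of *H2-Q7* against WT was 0.42 in the high fraction (95% interval −0.47 to 1.31, adjusted p = 0.61) and 0.51 in the low fraction (95% interval −0.47 to 1.5, adjusted p = 0.517). Without mouse 3 the values were 0.66 (adjusted p = 0.251) and 1.02 (adjusted p = 0.069).

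Of the related genes, *H2-D1* was higher in the *Sharpin* cpdm low fraction (0.24, SE 0.0481, adjusted p = 9.96e-04, limma) and *H2-T10* in both fractions (0.22 and 0.28, adjusted p = 0.0449 and 0.00664). *H2-T10* shares stretches with *H2-T22*, whose values were 82.92, 92.97 and 96.62 CPM in the low and 196.1, 218.8 and 217.3 CPM in the high fraction of these mice. Of the 14 light-chain and loading genes 3 were higher in the low fraction, *Tap1* among them (0.21, adjusted p = 0.0172). The SP marker sum was 834.1 to 858.3 CPM in *Sharpin* cpdm low samples, above the 713.3 to 737.7 CPM of WT, and its part in these levels was not tested.

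The mutants were also set against each other. WT levels do not enter this difference, but the WT samples are part of the model's shared estimate of spread. In the high fraction 4 of the 8 genes were lower in *Hoil*ΔCd4 than in *Sharpin* cpdm mice, where 6.73% of all genes were called and 3.02% were lower. *H2-T22* differed by −0.34 (SE 0.0631, adjusted p = 7.96e-04, limma) and kept its call in all 19 alternatives, including the fit without *Hoil*ΔCd4 mouse 2 (−0.27, adjusted p = 0.0425). The other 3 were *H2-T23* (−0.24, SE 0.0517, adjusted p = 0.00345), *H2-M3* (−0.33, SE 0.085, adjusted p = 0.015) and *H2-Q4* (−0.44, SE 0.108, adjusted p = 0.024). By edgeR and by DESeq2 3 of the 8 were called, without *H2-Q4* (adjusted p = 0.122 and 0.0881). *H2-T23*, *H2-M3* and *H2-Q4* lost their calls without *Hoil*ΔCd4 mouse 2 (adjusted p = 0.135, 0.191 and 0.171), when calls over all genes fell from 861 to 324. Over the 19 alternatives *H2-T23* lost its call in 2, *H2-M3* in 4 and *H2-Q4* in 8. In each of the 4 the groups did not overlap (22.9% of all genes), as for *H2-Q7* (−0.93, SE 0.452, adjusted p = 0.265) and, in the opposite direction, *H2-Q2* (0.29, SE 0.0934, adjusted p = 0.0563), which were −0.84 and 0.32 without *Hoil*ΔCd4 mouse 2 (adjusted p = 0.582 and 0.145).

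In the low fraction 2 of the 8 genes were lower in *Hoil*ΔCd4 than in *Sharpin* cpdm mice, where 9.48% of all genes were called and 4.36% were lower. *H2-T22* was at 83.14, 73.18 and 73.82 CPM in *Hoil*ΔCd4 mice and 82.92, 92.97 and 96.62 CPM in *Sharpin* cpdm mice, a log2 difference of −0.24 (SE 0.0713, adjusted p = 0.0296, limma). *H2-M3* was at 25.49, 23.01 and 20.49 CPM against 28.45, 27.03 and 30.45 CPM, a log2 difference of −0.31 (SE 0.0961, adjusted p = 0.0381, limma). Both were called by edgeR and DESeq2. Both calls were lost without *Hoil*ΔCd4 mouse 2 (−0.21 and −0.31, adjusted p = 0.116 and 0.0846), when calls over all genes fell from 1213 to 772. Over the 19 alternatives *H2-T22* lost its call in 6 and *H2-M3* in 7, among them fits without other mice. The groups overlapped for *H2-T22* but not for *H2-M3* (27.8% of all genes did not overlap).

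Once each gene was centred on its fraction, the 8 genes differed in which others they followed over the 18 samples, which share their mice. *H2-T22* and *H2-Q4* had a Pearson r of 0.824 and *H2-T23* and *H2-T22* of 0.807, whereas *H2-Q2* went against *H2-M3* (−0.505) and *H2-T23* (−0.466). Among all genes tested the nearest to *H2-Q4* was *Fam118a* (r = 0.933), to *H2-T22* *Ptgr2* and *Trim23* (both 0.908), to *H2-M3* *Zfp513* (0.896) and *Psmb9* (0.881), and to *H2-T23* *Gsdmd* (0.883). The nearest to *H2-Q2* was *Anxa2* (0.856), to *Cd1d1* *E130307A14Rik* (0.854), to *Mr1* *Rassf7* (0.853) and to *H2-Q7* *Pde8a* (0.825). These are descriptions over samples that differ in genotype, mouse and depth.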

How the data were processed

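RNA of sorted thymocytes was sequenced as single-end reads of 75 bases. By the paper's methods and the labels, the authors used the subread aligner on mm10, and featureCounts with its inbuilt RefSeq annotation gave the gene counts. Versions and the settings for strand and for reads with several matches are not given in the sources used here. The deposited counts come as whole numbers, one file per sample, with no normalization. Gene length in the same files served for levels per kb. A deposited table of the whole series was checked to hold the same counts and was not used. Symbols and coordinates were looked up in RefSeq GRCm38.p6 for 25275 genes, and the 1904 without an entry held 0.655% of the counts. Any 2 samples of a group differed by more than counting noise (chi-square per degree of freedom 5 to 15.7), so each was kept as a replicate. With 3 mice per group, precision is limited by the number of mice rather than by depth. For H2-Q7 in the low fraction, with 15 to 86 counts per sample, the parts of depth and of mice were not tested.

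Tested were the 12798 genes that reached 0.5 CPM in 3 samples or more, leaving out Xist, the Y chromosome, predicted genes and unnamed genes. After TMM scaling (factors 0.9873 to 1.015), log2 CPM was computed with 1 as the prior count. One limma model of 6 groups used sample quality weights (0.6282 to 2.423), the mouse as a random block (correlation 0.2239) and a robust eBayes step with an abundance trend, and gave 11 comparisons. Fold changes, SE, 95% intervals and adjusted p-values (Benjamini-Hochberg over all genes tested, called under 0.05) come from this model. Both fractions of a mouse came from one animal, and the Pearson r of their deviations ran from 0.0702 to 0.256. The software was limma 3.58.1, statmod 1.5.0, DESeq2 1.42.0 and edgeR 4.0.16 in R 4.3.3, tried first on simulated counts. The 19 alternatives comprised edgeR, DESeq2, library-size scaling, testing without the filter, a minimum of 10 counts in each sample, models without the block or without the weights, a fixed block by mouse number, a prior of 3, adjustment for Xist, and 9 models that each omitted a mouse.

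The 8 genes, the gene lists and the tests were chosen with earlier results of these data known. All 8 genes were named, and from other lists at most 4 genes per comparison, by smallest p, besides B2m, H2-K1, H2-D1 and Nlrc5. For likeness, the genes with the highest Pearson r were named. H2-Q6, H2-T3, H2-M10.2, S1pr1, Rag1, Epcam, Foxn1 and Pax5 were added after their values were seen.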

Additional observations from a re-analysis of the deposited data

How the results depend on the processing

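Leaving out any 1 of the 9 mice kept 7 of the 8 genes called between the WT fractions, 6 in Sharpin cpdm mice and 6 to 8 in HoilΔCd4 mice, and every alternative kept the direction of the called genes there. The differences between genotypes were less stable, and the cause was not tested. HoilΔCd4 against WT in the high fraction gave 3 called genes, and 1 to 6 when 1 mouse was left out (6 without HoilΔCd4 mouse 1, 1 without HoilΔCd4 mouse 2 and 1 without WT mouse 3). HoilΔCd4 against Sharpin cpdm gave 4 in the high fraction (1 to 5 with 1 mouse left out) and 2 in the low fraction (0 to 3). The latter fell to 0 without the filter on low counts. Sharpin cpdm against WT gave 0, and 0 to 1 in each fraction with 1 mouse left out, and 1, H2-Q2, in the high fraction with Xist as a covariate. The mouse number as a fixed replicate block left 0 called genes for HoilΔCd4 against Sharpin cpdm in the low fraction. The labels do not say whether mice of the same number in different genotypes shared more than the number. The r of their deviations lay between −0.0425 and 0.161, and that of mice of different number and genotype between −0.234 and 0.0873. Values near 0 turned sign: Mr1 between the Sharpin cpdm fractions was −0.029 with edgeR, −0.027 with DESeq2, −0.011 with the replicate block, −0.044 without sample weights and −0.17 to 0.098 with 1 mouse left out. Mr1 in HoilΔCd4 against WT high fractions ran from −0.087 to 0.036, and H2-Q7 in Sharpin cpdm against WT low fractions from −0.065 to 1.02, with 1 mouse left out. Over all genes, the calls for HoilΔCd4 against WT went from 851 to between 134 and 1219 in the high fraction (404 with edgeR and 484 with DESeq2) and from 126 to between 62 and 222 in the low fraction. Those for Sharpin cpdm against WT went from 1103 to between 238 and 1366 in the high and from 1565 to between 818 and 1728 in the low fraction. Between the mutants they went from 861 to between 324 and 1161 and from 1213 to between 707 and 1637, and for the changes between fractions from 51 to between 0 and 62 and from 400 to between 30 and 501. H2-Q7 in the low fraction rested on 15 to 86 counts per sample, and the parts of depth and of differences between mice in its spread were not tested.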
